A study of Mus musculus with 8 samples.

Results

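A set of 10 genes that mark myofibroblasts, vascular smooth muscle and pericytes was followed in mouse wound skin. They are Acta2, Tagln, Cnn1, Myh11, Des, Pdgfra, Pdgfrb, Rgs5, Cspg4 and Mcam. They were picked by symbol, with earlier results of these data known, and make up 10 of the 18540 genes in the deposited count table. All 10 passed the filter on low counts, as did 15147 genes in all.

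The study treated full-thickness skin wounds, 10 mm across on the back of the mouse, with Z1C2Z. Z1C2Z is a composite of zinc peroxide (ZnO2) and cerium dioxide (CeO2) in the metal organic framework ZIF-8, and of the versions made it holds more CeO2 relative to ZnO2. RNA from the skin of 4 control samples and 4 treated samples was sequenced after removal of ribosomal RNA. The comparison asks how wound skin given Z1C2Z differed from wound skin given PBS.

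The control samples (titled con) carry the numbers 1, 2, 3 and 5 and are called control-1 and so on, and the treated samples (titled shiyan) carry 1, 2, 4 and 5 and are called Z1C2Z-1 and so on. Values are given in this order. These numbers match the sample numbers that the study shows for its control and Z1C2Z groups, and the titles themselves name no agent. The methods for the sequencing name only ZCZ, a name that covers both CeO2 ratios. That the treated samples had Z1C2Z therefore rests on the match of numbers. Per the methods the sequenced wounds were treated for 15 days, and the wound experiments used 100 ug/kg. Those experiments were done in C57BL mice aged 6 weeks and in db/db mice aged 10 weeks, which lack a working leptin receptor and are diabetic. Neither the labels nor the methods say which of the mice were sequenced or which samples came from separate mice, so the p-values below measure the spread between these samples.

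A wound closes partly by the pull of myofibroblasts, which are fibroblasts that have built contractile fibres of smooth muscle actin. New vessels are wrapped by mural cells, namely pericytes on capillaries and smooth muscle cells on larger vessels, which vessels recruit by releasing platelet-derived growth factor (PDGF). These contractile genes serve in all of these cells, in the arrector muscle of the hair follicle and, for desmin, in skeletal muscle, so a level in whole skin is a sum over cell types. Fewer cells of a type and less RNA per cell cannot be told apart in such data.

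The samples held between 28856790 and 38974888 counts, and no library matched another within sampling noise. The labelled tissue, skin, was checked by its epidermal keratins, which were abundant in all samples (Krt5 at 1752 ± 178 CPM and 1884 ± 258 CPM in the control and Z1C2Z groups, SD, n = 4 each). Other tissue markers moved with the group. Hair follicle genes summed to 645 to 3830 CPM in the controls and 4695 to 17214 CPM with Z1C2Z, and skeletal muscle genes to 4947 to 9400 CPM and 4287 to 4860 CPM. Control-1 stood apart in these sums, with the most skeletal muscle signal and, at 375 CPM, the least endothelial signal among the controls.

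All 10 genes had a lower fitted level in the Z1C2Z group, and 3 of them, the contractile genes Acta2, Cnn1 and Des, passed the test. Levels are given in CPM, counts scaled to a common library size after normalization by the TMM method. A gene was called at an adjusted p under 0.05 in edgeR's quasi-likelihood test, with adjustment over all 15147 genes. The 3 members called lower compare with 3.85% of all genes called lower, and 0 members were called higher against 4.28% of all genes. DESeq2 also called 0 members higher, and 0 were higher at an unadjusted p under 0.05. At an unadjusted p under 0.05 it was 9 of 10 members, against 15.2% of all genes that were lower at that p. With a log2 fold change beyond 1 also required, Cnn1 alone remained, against 1.25% of all genes. The median log2 fold change of the 10 was -0.66, and that of all genes tested was 0.0086.

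**Figure D1:**
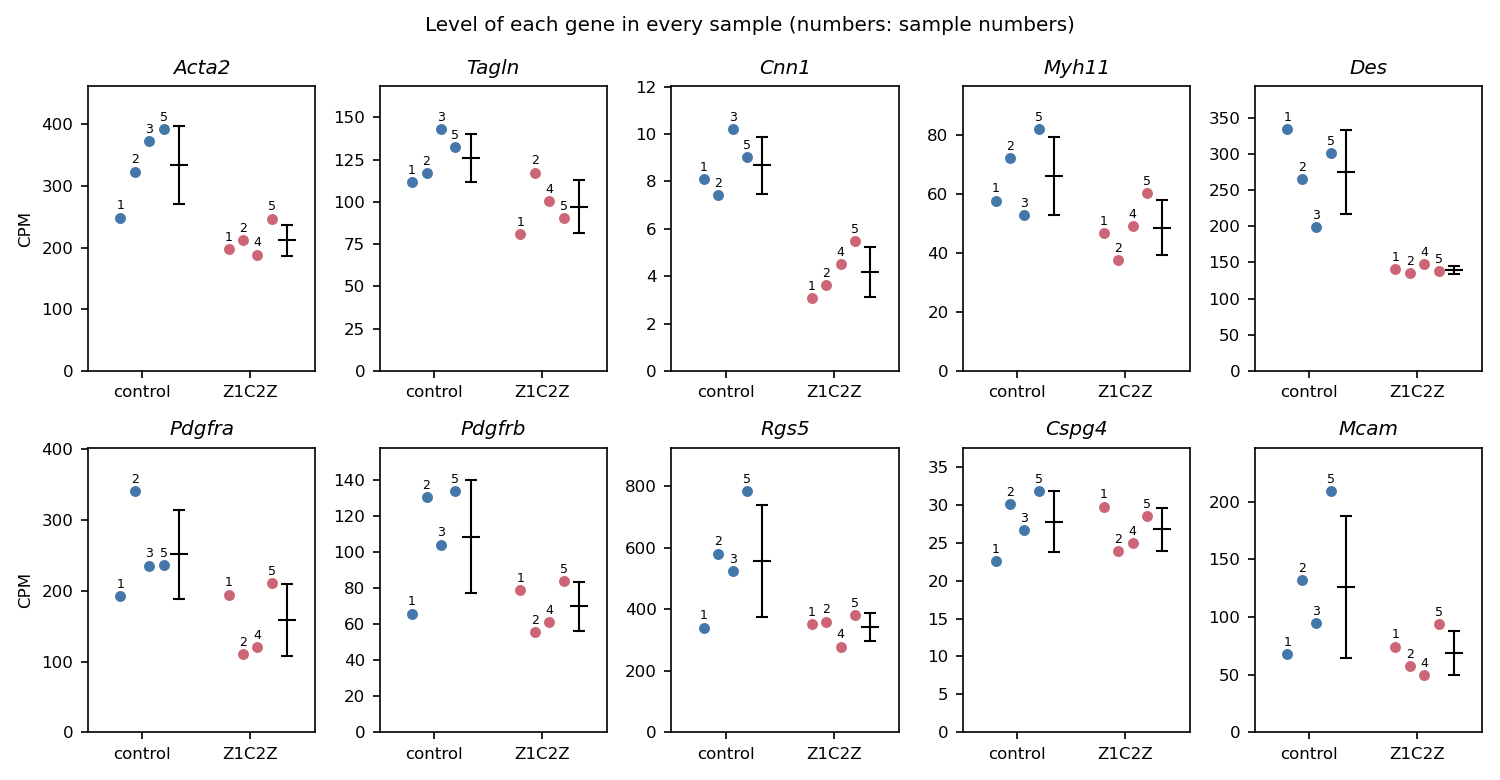
CPM of each of the 10 genes in every sample, with the control group on the left and the Z1C2Z group on the right of each panel. Points are samples with their numbers, black bars are the mean ± SD of 4 samples, and every axis starts at 0. Acta2, Cnn1 and Des show no overlap between groups, and Cspg4 lies between 22.6 and 31.8 CPM in both.

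Acta2 encodes smooth muscle alpha-actin, the actin of contractile fibres and the usual marker of myofibroblasts. Its counts were 6998, 11643, 13512 and 13896 in controls 1, 2, 3 and 5, or 249, 323, 372 and 391 CPM. In treated samples 1, 2, 4 and 5 they were 7017, 8198, 7507 and 8906, or 198, 212, 188 and 247 CPM. Every treated sample was below every control, although the highest of them, Z1C2Z-5, was only just under the lowest control, control-1. The group means were 334 ± 63.7 CPM in the controls and 211 ± 25.6 CPM with Z1C2Z (SD, n = 4 each). Acta2 fell by 0.66 on the log2 scale (SE 0.15), and edgeR's adjusted p was 0.0377. The exact two-sided permutation test gave p = 0.0286, the smallest that the 70 arrangements of 4 against 4 samples allow.

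The stretch before the Acta2 start site is shown because of the 7 members with a RefSeq window it is the only one with a CArG-like box, the element bound by serum response factor (SRF), which drives contractile genes. The 150 bases before the annotated start lie at chr19:34255374-34255523 on the minus strand (GRCm38.p6, RefSeq), with the boxes in capitals.
Acta2: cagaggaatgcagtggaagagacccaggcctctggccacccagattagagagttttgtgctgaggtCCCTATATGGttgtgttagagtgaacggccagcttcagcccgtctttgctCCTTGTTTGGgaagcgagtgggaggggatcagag
Cnn1: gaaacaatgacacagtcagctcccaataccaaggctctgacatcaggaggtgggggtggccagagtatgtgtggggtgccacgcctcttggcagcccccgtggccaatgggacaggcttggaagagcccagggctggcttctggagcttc
Des: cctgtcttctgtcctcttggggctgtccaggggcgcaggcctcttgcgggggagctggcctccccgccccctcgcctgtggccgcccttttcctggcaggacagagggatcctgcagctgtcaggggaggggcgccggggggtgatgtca
The Cnn1 stretch is chr9:22099103-22099252 and the Des stretch chr1:75360142-75360291, both on the plus strand. The box, with at most 1 G or C allowed in its A/T core, was searched on both strands in the 250 bases before each start. Acta2 held it 2 times, and 8.59% of all 32851 windows held it. A match describes the letters only, and elements in introns or farther upstream were not searched. Tagln, Myh11 and Pdgfrb had no window, so whether they hold the box was not tested. The E box CANNTG, bound by muscle and other helix-loop-helix factors, was in 66.2% of all windows, and the windows of Acta2, Des, Cnn1, Pdgfra and Mcam held at least 1.

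Cnn1 encodes calponin, which binds actin and slows the contraction of smooth muscle, and it is found in mature contractile cells. It was among the least abundant members, with 228, 267, 370 and 320 counts in the controls in the same order, or 8.10, 7.41, 10.2 and 9.01 CPM. The treated samples had 109, 140, 179 and 198 counts, or 3.07, 3.63, 4.49 and 5.49 CPM. The groups did not overlap, and the highest treated sample stood clear of the lowest control. Cnn1 fell by 1.06 on the log2 scale (SE 0.20, 95% interval -1.51 to -0.60), which was 2.08-fold (edgeR, adjusted p = 0.0303). The exact two-sided permutation test again gave the smallest possible p of 0.0286.

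Des encodes desmin, the intermediate filament that ties contractile units together in smooth, cardiac and skeletal muscle and is also present in pericytes. The controls had 9390, 9544, 7214 and 10683 counts, or 334, 265, 199 and 301 CPM. With Z1C2Z the counts were 4991, 5200, 5875 and 4957, or 141, 135, 148 and 137 CPM. The treated samples lay close together and all below the controls, and control-1, low for most other members, was the highest sample for Des. The means were 275 ± 57.8 CPM and 140.1 ± 5.52 CPM (SD, n = 4 each). Des fell by 0.97 on the log2 scale (SE 0.15), with the smallest adjusted p of the 10 genes (edgeR, 0.0299) and an exact permutation p of 0.0286.

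Tagln encodes transgelin (SM22 alpha), an actin-binding protein of smooth muscle and early myofibroblasts. The control values were 3144, 4211, 5184 and 4703 counts, or 112, 117, 143 and 132 CPM. In the treated samples they were 2867, 4527, 3991 and 3259 counts, or 80.9, 117, 100.2 and 90.4 CPM. Z1C2Z-2 reached the level of control-2, so the groups overlapped. Its log2 fold change of -0.37 (SE 0.13) did not pass the test (edgeR, adjusted p = 0.105). Tagln shares 48.3% of its 50-base stretches with other annotated transcripts, mainly with Gm48529 on the opposite strand, and the strand setting of the counting is not given in the sources used here. Reads of Tagln and of that gene may therefore not be told apart.

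Myh11 encodes the smooth muscle myosin heavy chain, the most specific marker of smooth muscle cells in this set. Control counts were 1624, 2595, 1913 and 2906, or 57.7, 72.0, 52.7 and 81.9 CPM. Treated samples had 1657, 1453, 1957 and 2176 counts, or 46.7, 37.6, 49.1 and 60.3 CPM. Only Z1C2Z-5 reached into the range of the controls, above control-1 and control-3. At -0.45 (SE 0.18) the log2 fold change did not pass (edgeR, adjusted p = 0.136).

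Across the 5 contractile members the summed level was 760 to 916 CPM in the controls and 469 to 541 CPM with Z1C2Z, without overlap. Acta2 and Des, the most abundant of them, weigh most in this sum. The sum of Pdgfra, Pdgfrb, Rgs5, Cspg4 and Mcam did overlap, at 689 to 1396 CPM in the controls and 535 to 797 CPM with Z1C2Z. Of the set as a whole, 3 genes did not overlap between groups, all lower with Z1C2Z, against 8.82% of all genes. None was without overlap in the other direction, against 8.45% of all genes.

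Pdgfra and Pdgfrb encode the receptors for PDGF, of which alpha marks fibroblasts and beta marks pericytes and smooth muscle cells. Pdgfra had 5414, 12277, 8537 and 8395 counts in the controls, or 192, 341, 235 and 236 CPM. The treated samples had 6893, 4278, 4800 and 7596 counts, or 194, 111, 121 and 211 CPM. Z1C2Z-2 and Z1C2Z-4 were well below the controls, whereas Z1C2Z-1 and Z1C2Z-5 lay above control-1. The log2 fold change of Pdgfra was -0.66 (SE 0.25) with an adjusted p of 0.121 in edgeR's test.

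For Pdgfrb the control counts were 1852, 4691, 3775 and 4746, or 65.8, 130.2, 104.0 and 134 CPM. The treated counts were 2788, 2147, 2427 and 3018, or 78.6, 55.6, 60.9 and 83.7 CPM. Control-1 fell inside the treated range and the other controls were all above it. The log2 fold change was -0.64 (SE 0.23), and edgeR's adjusted p was 0.107.

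Rgs5 encodes a regulator of G protein signalling that is enriched in pericytes and vascular smooth muscle, and it had the highest CPM of the set. Control counts were 9594, 20946, 19020 and 27858, or 341, 581, 524 and 785 CPM. With Z1C2Z they were 12444, 13884, 11101 and 13739, or 351, 359.7, 279 and 381 CPM. Control-1 was again inside the treated range, while the other 3 controls stood above all treated samples. Its log2 fold change was -0.70 (SE 0.22) and did not pass (edgeR, adjusted p = 0.0819). Without control-1 it was -0.88 with an adjusted p of 0.0302.

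Mcam encodes CD146, an adhesion molecule of mural and endothelial cells. In the controls it had 1908, 4751, 3446 and 7436 counts, or 67.8, 132, 94.9 and 209 CPM. In the treated samples it had 2640, 2219, 1987 and 3379 counts, or 74.5, 57.5, 49.9 and 93.7 CPM. Its spread among the controls was the widest of the set, with control-5 far above the rest and control-1 within the treated range. The log2 fold change of -0.87 carried an SE of 0.33 and a 95% interval of -1.62 to -0.12, and edgeR's adjusted p was 0.128.

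Cspg4 encodes NG2, a proteoglycan of the pericyte surface. It had 636, 1083, 966 and 1129 counts in the controls, or 22.6, 30.1, 26.6 and 31.8 CPM. The treated samples had 1055, 922, 992 and 1027 counts, or 29.8, 23.9, 24.9 and 28.5 CPM. All treated samples lay inside the range of the controls. The log2 fold change was -0.05 with a 95% interval of -0.34 to 0.23 (edgeR, adjusted p = 0.811), so a fall of up to 0.34 on the log2 scale lies within its error. Set against Cspg4 within each sample, 5 of the other 9 members (Acta2, Cnn1, Des, Pdgfra and Rgs5) had a log2 ratio that was lower in every treated sample than in every control, as had 8.13% of all genes tested. The mean ratio of Rgs5 to Cspg4, for example, was 4.28 ± 0.29 in the controls and 3.67 ± 0.19 with Z1C2Z on the log2 scale (SD, n = 4 each). Cspg4 was chosen as the reference after its values were seen, so these ratios are given without a test.

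**Figure D2:**
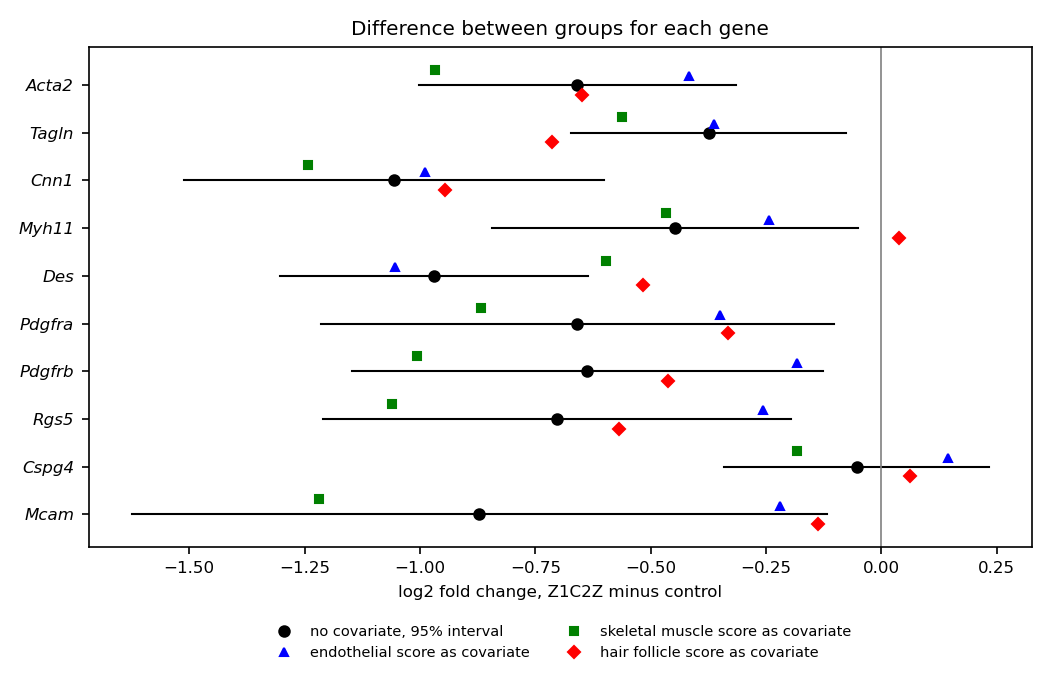
Log2 fold change (Z1C2Z minus control) of each gene, with black points and lines for the fit without covariate and its 95% interval. Triangles, squares and diamonds are the same value with the endothelial, skeletal muscle or hair follicle score of each sample as a covariate. The black points lie between -1.06 (Cnn1) and -0.05 (Cspg4), and only the line of Cspg4 crosses 0.

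Single libraries decided which members were called. Without control-1 there were 5 called lower, Acta2, Cnn1, Des, Pdgfrb and Rgs5, against 5.68% of all genes in that fit. Leaving out control-2 kept Des alone (0.641% of all genes), and leaving out control-3 kept Cnn1 and Des (3.04%). Without control-5, or without any one of treated samples 1, 2 and 4, edgeR called no member and no gene of the whole table, although 5 to 7 members and 3100 to 4208 genes had an unadjusted p under 0.05 in these fits, and without Z1C2Z-5 the same 3 members were called (5.62% of all genes). Over these 8 fits the log2 fold change of Acta2 stayed between -0.78 and -0.57, that of Cnn1 between -1.22 and -0.93 and that of Des between -1.09 and -0.87. DESeq2 called 7 members lower, the 3 genes above together with Pdgfra, Pdgfrb, Rgs5 and Mcam, against 8.17% of all genes.

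Compared per kilobase of exon, Acta2 was the most abundant member in the controls at 164 ± 31.3 CPM per kb (SD, n = 4), followed by Rgs5 at 123, Des at 90.7 and Tagln at 79.0. Then came Mcam at 42.2, Pdgfra at 28.6, Pdgfrb at 19.8 and Myh11 at 9.996 CPM per kb. Cnn1 and Cspg4 were last at 3.44 and 3.42 CPM per kb. The ranges of neighbours in this order overlapped in the controls, except those of Myh11 and Cnn1. With Z1C2Z the order was kept but for Tagln, which came before Des at 60.9 against 46.3 CPM per kb, and Cspg4, which came before Cnn1 at 3.29 against 1.65. Exon lengths are those of GENCODE vM21, which may differ from the annotation behind the counts.

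The members did not vary as one block. Pdgfrb, Rgs5, Cspg4 and Mcam varied together within the groups, with Pearson's r of log2 CPM between 0.83 and 0.97 for their 6 pairs over the 8 samples after the group means were subtracted. The 10 pairs of contractile members had r between -0.54 and 0.50 in the same measure, and Des had r between -0.54 and 0.36 with the other 9 members. Some other members varied with these 4 genes too. With Rgs5, Mcam, Pdgfrb and Cspg4 in turn, r was 0.87, 0.78, 0.75 and 0.65 for Acta2 and 0.52, 0.77, 0.70 and 0.71 for Myh11. It was 0.44, 0.61, 0.79 and 0.77 for Pdgfra. For Tagln, Cnn1 and Des it lay between -0.29 and 0.25, so the contractile members were not set apart as a group. These values describe 8 libraries that share their scaling. In the controls, control-1 was the lowest sample for 7 of the 10 members and control-5 the highest for 6. In the treated group, Z1C2Z-5 was the highest for 7.

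**Figure D3:**
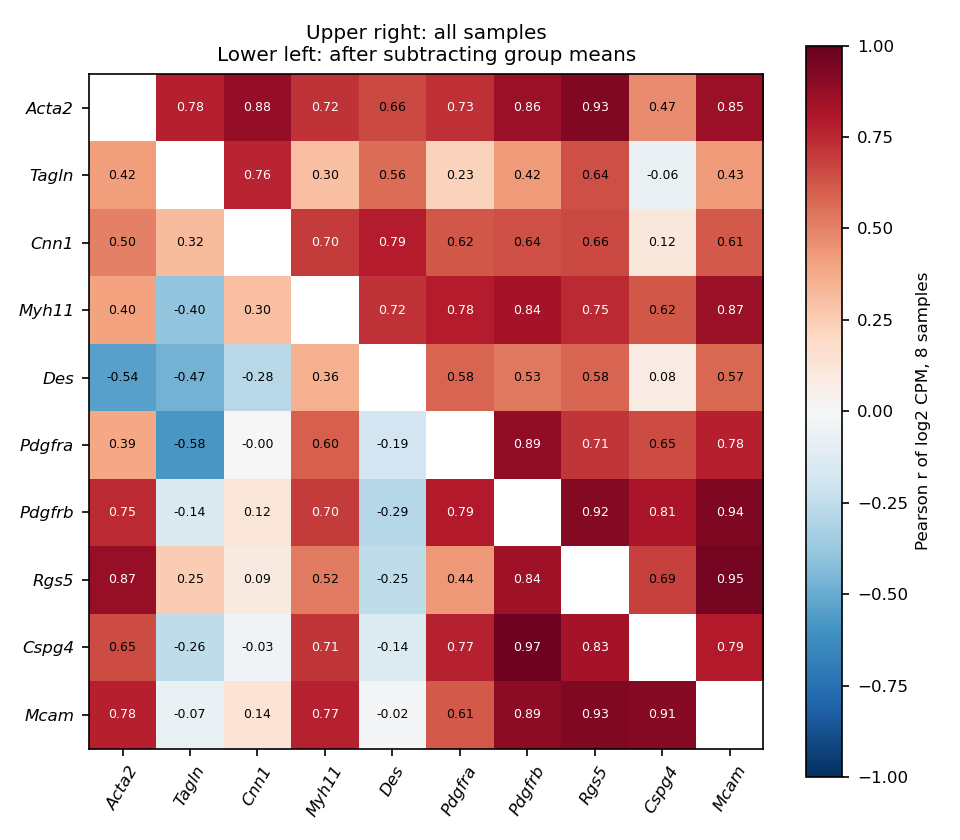
Pearson's r of log2 CPM between the 10 genes over the 8 samples, as they are above the diagonal and after subtracting group means below it. The block of Pdgfrb, Rgs5, Cspg4 and Mcam at the lower right runs from 0.685 to 0.972, and the row of Des below the diagonal is mostly negative.

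The genes of the whole table most like Acta2 over the 8 samples were Ctsa (r = 0.992), Ilk (r = 0.990) and Gjc1 (r = 0.984). Gjc1, a gap junction protein of smooth muscle, went from 28.4 to 14.3 mean CPM (log2 fold change -0.99). Those most like Des were Pdlim3 (r = 0.986), Acta1 (r = 0.982) and Capn3 (r = 0.978). As r was taken over both groups, genes chosen this way share the group difference of the member they were chosen by, and their own differences are a description only. Acta1 is the actin and Capn3 a calpain of skeletal muscle, and Pdlim3 is a protein of the muscle Z disc. Those most like Rgs5 were Plekho1 (r = 0.992), Ift122 (r = 0.989) and Rasip1 (r = 0.988). Rasip1, which acts in endothelial cells during vessel formation, had 21.7 mean CPM in the controls and 11.8 with Z1C2Z.

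The markers of other cells were then set beside the members. Of the marker lists compared, Des was closest to the other smooth muscle contractile genes (r = 0.966 with their mean log2 CPM over the 8 samples) and ran against the hair follicle genes (r = -0.919), and Rgs5 was closest to the other pericyte and mural genes (r = 0.974). The mean log2 CPM of the 18 skeletal muscle genes followed Des with r = 0.894 over the 8 samples, and that of the 10 endothelial genes followed Rgs5 with r = 0.936, Pdgfrb with r = 0.963 and Mcam with r = 0.945. These r were taken over both groups, so a list and a member that both differ between groups correlate through that difference. No r within groups was computed for the lists. The smooth muscle list also holds genes expressed in skeletal muscle, so its r does not place Des in either tissue. Of the skeletal muscle genes, 4 were called lower (Acta1, Myh1, Myh2 and Ryr1) and 0 higher, with a median log2 fold change of -0.57. The shares of all genes were 3.85% and 4.28%. Without control-1 edgeR called 3 genes of this list lower, against 5.68% of all genes in that fit. Acta1 had a mean of 1077 ± 279 CPM in the controls and 593 ± 31.2 CPM with Z1C2Z (SD, n = 4 each). With the skeletal muscle score of each sample in the fit, the log2 fold change of Des was -0.60 (edgeR, adjusted p = 0.103) and those of Acta2 and Cnn1 were -0.97 and -1.24 (adjusted p = 0.0839 and 0.0969).

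Of the endothelial genes edgeR called none, 6 had an unadjusted p under 0.05, all lower, and DESeq2 called 2 lower. The shares of all genes were 15.2% lower at that p and 8.17% by DESeq2. Without control-1 edgeR called 6 endothelial genes lower, against 5.68% of all genes, and without control-5 it called no gene of the whole table. In all, 9 of the 10 endothelial genes had a log2 fold change below 0, and their median was -0.66. Their summed level was 375 to 993 CPM in the controls and 337 to 613 CPM with Z1C2Z. Pecam1, the junction protein CD31, had 232 ± 83.1 and 134 ± 35.0 CPM, and Cdh5, the cadherin of endothelial junctions, had 157 ± 66.0 and 83.6 ± 32.96 CPM (SD, n = 4 each). The endothelial score was added to the fit after seeing the data. With it the log2 fold changes of Rgs5, Mcam, Pdgfrb and Myh11 were -0.26, -0.22, -0.18 and -0.24. Those of Pdgfra, Tagln and Acta2 were -0.35, -0.36 and -0.42, that of Cspg4 was 0.14, and those of Cnn1 and Des were -0.99 and -1.05. With the hair follicle score in the fit the log2 fold changes of Mcam, Myh11 and Cspg4 were -0.14, 0.04 and 0.06, and those of Pdgfra, Pdgfrb and Des were -0.33, -0.46 and -0.52. Those of Rgs5, Acta2, Tagln and Cnn1 were -0.57, -0.65, -0.71 and -0.95. No gene of any of these lists was at 0 in all samples. With the skeletal muscle, hair follicle or endothelial score as covariate edgeR called no member, and in the whole table it called 0, 1 and 0 genes, so this is not particular to the members. At an unadjusted p under 0.05 there were 8, 3 and 3 members, against 22.4%, 4.34% and 17.2% of all genes. No other tool was run with these scores, and the part of these tissues in the differences was not tested beyond these fits.

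**Figure D4:**
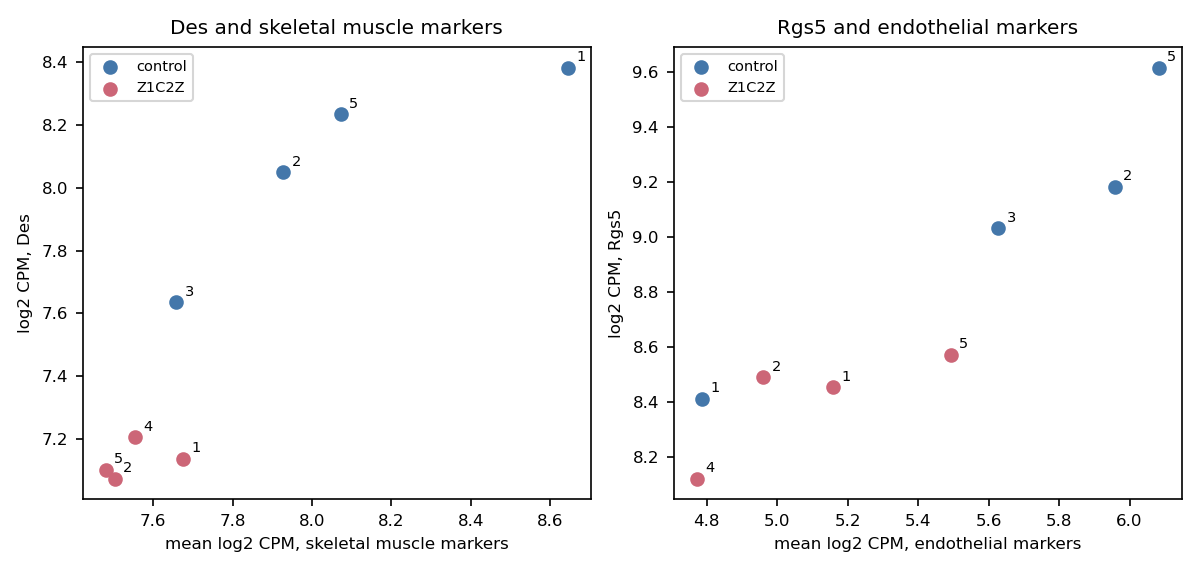
Left, log2 CPM of Des against the mean log2 CPM of the 18 skeletal muscle genes, and right, log2 CPM of Rgs5 against that of the 10 endothelial genes. Each point is a sample with its number. Control-1 is at the top right of the Des plot and with the treated samples in the Rgs5 plot.

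Other genes of the smooth muscle apparatus were read from the same fit. Of 20 further contractile genes, 5 were called lower and 0 higher, against 3.85% and 4.28% of all genes, with a median log2 fold change of -0.31. They were Actg2, the enteric smooth muscle actin, at -0.71, Cald1, caldesmon, at -0.64, the actin-associated synaptopodin-2 gene Synpo2 at -0.61, the intermediate filament gene Synm at -0.73 and the small heat shock protein gene Hspb6 at -1.11. Their adjusted p-values in edgeR's test ran from 0.0303 to 0.0423. Without control-1 edgeR also called 5 genes of this list lower, against 5.68% of all genes. Hspb6, Synm and Synpo2 are also expressed in skeletal muscle. Cald1 had 597 ± 54.2 CPM in the controls and 384 ± 56.5 CPM with Z1C2Z (SD, n = 4 each). The abundant genes Tpm1, Myl6, Tpm2 and Csrp1 did not pass, with log2 fold changes of -0.15, 0.17, -0.40 and -0.27.

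Of 8 genes of SRF, its cofactors and their targets, 1 was called lower, the focal adhesion gene Vcl, which encodes vinculin (241 ± 30.9 and 148 ± 26.2 CPM, SD, n = 4 each). Its log2 fold change was -0.70 (edgeR, adjusted p = 0.0315). EdgeR called 1 gene of this list lower without control-1 too. These counts compare with 3.85% of all genes in the full fit and 5.68% without control-1. Srf itself was at 37.3 ± 6.01 and 31.8 ± 0.71 CPM, and Myocd, the smooth muscle cofactor of SRF, was at 2.44 ± 0.90 and 1.55 ± 0.51 CPM (SD, n = 4 each). Neither passed (edgeR, adjusted p = 0.218 and 0.236). The more abundant Flna, Filip1l, Mrtfb and Mrtfa had log2 fold changes of -0.51, -0.49, -0.43 and -0.24 and did not pass.

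Among 19 further pericyte and mural genes, edgeR called 0 lower and 1 higher, against 3.85% and 4.28% of all genes. At an unadjusted p under 0.05, 5 were lower, DESeq2 called 4 lower, and without control-1 edgeR called 3 lower. By each of these 3 rules 1 was higher. DESeq2 called 1239 of all 18398 genes higher, and edgeR called 656 of all 15280 higher without control-1. At an unadjusted p under 0.05, 28% of all genes differed in either direction. The shares of all genes were 15.2% lower at that p, 8.17% called lower by DESeq2 and 5.68% without control-1. The gene called higher was Heyl, a target of Notch signalling in mural cells, at 13.5 ± 1.26 CPM in the controls and 20.3 ± 2.56 CPM with Z1C2Z (SD, n = 4 each). Its log2 fold change was 0.59 (edgeR, adjusted p = 0.0306), and every treated sample was above every control. The median of the list was -0.37. For Notch3, the receptor of mural cells, the value was -0.17 (edgeR, adjusted p = 0.600). Steap4, Abcc9, Ndufa4l2 and Aoc3, abundant genes of the list, had log2 fold changes of -0.48, -0.68, -0.17 and -0.66 and did not pass.

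All 4 PDGF ligands measured were lower in fitted level and edgeR called none, while 3 had an unadjusted p under 0.05 and DESeq2 called 3 lower. Without control-1 edgeR called 1 lower. The shares of all genes were 15.2% lower at that p, 8.17% called lower by DESeq2 and 5.68% without control-1. Pdgfb, which endothelial cells release to recruit pericytes, was at 25.9 ± 9.44 CPM in the controls and 16.3 ± 2.41 CPM with Z1C2Z (SD, n = 4 each). Its log2 fold change was -0.67 (edgeR, adjusted p = 0.0953). Those of Pdgfa, Pdgfc and Pdgfd were -0.24, -0.59 and -0.33. The groups of Pdgfb, Pdgfc and Pdgfd did not overlap, all lower with Z1C2Z, against 8.82% of all genes.

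Among 15 genes of wound myofibroblasts and of the signals that induce them, 4 were called lower and 0 higher, with a median log2 fold change of -0.65. Without control-1 it was 8 lower. Of all genes, 3.85% were called lower and 4.28% higher, and 5.68% were called lower without control-1. Tnc, the wound matrix protein tenascin C, went from 2182 ± 709 CPM in the controls to 487 ± 265 CPM with Z1C2Z (SD, n = 4 each). It fell by 2.16 on the log2 scale (edgeR, adjusted p = 0.0300). Ccn2, a growth factor-like matrix protein induced by TGF-beta, changed by -0.89, Tgfb2 by -0.85 and Cthrc1, a marker of collagen-making fibroblasts, by -0.65 on the log2 scale (edgeR, adjusted p = 0.0309, 0.0299 and 0.0299). The collagen genes Col1a1 and Col3a1 had log2 fold changes of -0.57 and -0.53, Postn of -0.73 and Fn1 of -0.66, and none of these passed. The smallest changes of the list were in Lrrc15, Fap and Tgfb3, at -0.066, -0.089 and -0.13 (edgeR, adjusted p = 0.851, 0.808 and 0.331).

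The general fibroblast markers gave 5 called lower of 12 and 0 higher, against 3.85% and 4.28% of all genes, with a median of -0.41. These were Dcn and Lum, small proteoglycans of the collagen matrix, Thy1, the microfibril gene Mfap5 and Cd34. Their log2 fold changes were -0.45, -0.67, -0.58, -0.58 and -0.34. The mean of this list followed Acta2 with r = 0.924 over the 8 samples, again with the group difference included. Col1a2, Dpt and Col14a1, at -0.37, -0.27 and -0.29, did not pass. Of the 12 markers, 10 had a log2 fold change below 0 and 2 above it. At an unadjusted p under 0.05, 7 were lower and 1 higher. Of all genes, 15.2% were lower and 28% differed in either direction at that p. Without control-1 edgeR called 5 markers lower, against 5.68% of all genes. The summed level of the list was 22880 to 28909 CPM in the controls and 18120 to 22863 CPM with Z1C2Z. The highest treated sample, Z1C2Z-5, was thus just below the lowest control, control-1, as it was for Acta2.

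**Figure D5:**
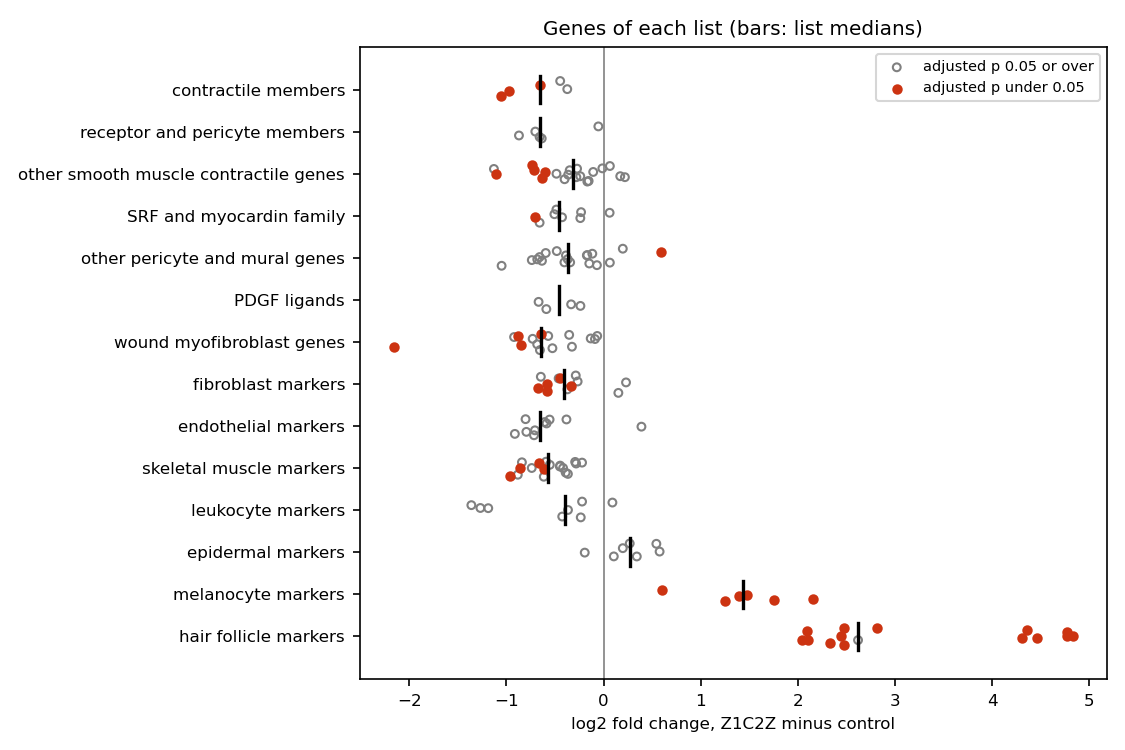
Log2 fold change (Z1C2Z minus control) of every tested gene of each list, with filled points for genes at an adjusted p under 0.05 and bars for list medians. The contractile, myofibroblast and fibroblast lists have called genes only below 0, the pericyte list has Heyl above 0, and the hair follicle list has a median of 2.62.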

How the data were processed

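For wound skin the authors deposited raw, unnormalized read counts on genes. The aligner, counting program, genome build, annotation and strand setting are not given in the sources used here. The labels name Trizol, ribosomal RNA removal and dUTP in the second strand, and the methods name another RNA kit.

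Samples were grouped by their titles. Counts were tested with edgeR 4.0.16 (limma 3.58.1, R 4.3.3), using filterByExpr, TMM normalization and the quasi-likelihood test, with Benjamini-Hochberg adjustment over 15147 genes. Log2 CPM used a prior count of 2. The exact permutation test was two-sided. Depth was 28856790 to 38974888 counts per sample, so counting error is small for all 10 genes except Cnn1. On simulated counts for this comparison over 15147 genes, 195 of 200 genes given a log2 change of 2 were found, and 12 unchanged genes were called. That change is larger than any fitted for the 10 members, of which Cnn1 at -1.06 was the largest. Changes of the members' size were not simulated, so the recovery does not tell how many of those would be found.

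The alternatives were DESeq2 1.42.0, RLE size factors, no filter on low counts, a minimum of 10 counts in all samples, a block for the sample number, skeletal muscle, hair follicle and endothelial scores as covariates, each sample left out, an unadjusted p, and an absolute log2 fold change over 1. A score is the mean log2 CPM of its list. Promoter sequences come from RefSeq (GRCm38.p6).

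The members and lists were chosen with earlier results of these data known, so no list was given a test. The text names all 10 members, the called genes of each list, up to 4 of its other genes by mean expression, and the 3 genes most correlated with Acta2, Des and Rgs5. Srf, Myocd and Notch3 were named outside that rule, for their roles, after their values were seen. Lrrc15, Fap and Tgfb3 were also named outside it, for the smallest changes of their list.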

Additional observations from a re-analysis of the deposited data

How the results depend on the processing

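Of 15147 genes, edgeR called 648 higher and 583 lower, and 3 members lower. DESeq2 called 1239 higher and 1504 lower, with 7 members. With the replicate block it was 301 and 253, with 1 member (Des). The numbers 1, 2 and 5 occur in both groups, and residuals of same-numbered samples correlated at -0.101, -0.0624 and 0.323. They were not taken as pairs, but these values cannot settle whether they are. In the methods it is wounds that were assigned to groups, and in the results text it is mice. A control and a treated sample may thus share a mouse. With the skeletal muscle, hair follicle or endothelial score as covariate, 0, 0 and 0 genes were called higher, 0, 1 and 0 lower, and 0 members. Leaving out 1 sample gave 0 to 886 higher, 0 to 868 lower and 0 to 5 members. By an unadjusted p 9 members were lower, and 1 with a log2 fold change over 1 also required. No alternative called a member higher. The sign changed for Myh11 (0.0391) and Cspg4 (0.0618) with the hair follicle score, for Cspg4 with the endothelial score (0.144) and for Cspg4 without control-5, the values with 1 sample left out running from -0.146 to 0.0198. The other 8 members kept theirs in all 16 refits. RLE size factors and both filters gave the same 3 members. The cause of these shifts was not tested. The hair follicle score of every treated sample was above that of every control, so it and the treatment cannot be told apart. Depth limits Cnn1 most, with 109 to 370 counts per sample.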

Other observations

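Lists of other skin cells were read from the same fit, in which 4.28% of all genes were called higher and 3.85% lower. All 6 melanocyte genes (Pmel, Dct, Tyrp1, Tyr, Mlana and Mitf) were called higher with Z1C2Z, with a median log2 fold change of 1.43. Their summed level was 145 to 244 CPM in the controls and 311 to 672 CPM with Z1C2Z, and among them Dct, an enzyme of melanin synthesis, went from 67.7 ± 19.6 to 161 ± 48.7 CPM (SD, n = 4 each). Of 15 hair follicle genes 14 were called higher. They were the inner root sheath keratins Krt25, Krt27, Krt28, Krt71 and Krt73, the hair keratins Krt31, Krt33a, Krt33b, Krt34, Krt35, Krt81 and Krt86, and the transcription factor genes Hoxc13 and Msx2. Krt71 was at 394 ± 314 CPM in the controls and 2200 ± 999 CPM with Z1C2Z (SD, n = 4 each). Without control-1 edgeR called 10 hair follicle genes higher, against 656 of all 15280 genes in that fit. Of 7 epidermal genes edgeR called 0 in either direction, 1 had an unadjusted p under 0.05 and DESeq2 called 1 higher, with a median log2 fold change of 0.27. Of all genes, 28% had an unadjusted p under 0.05 in either direction, and DESeq2 called 1239 of 18398 higher. Of 8 leukocyte genes edgeR called 0, 3 were lower at an unadjusted p under 0.05 and DESeq2 called 2 lower, and the median was -0.40. The shares of all genes were 15.2% lower at that p and 8.17% called lower by DESeq2. The macrophage gene Lyz2 and the pan-leukocyte gene Ptprc had log2 fold changes of -0.24 and -0.43, and the neutrophil genes S100a8 and S100a9 had log2 fold changes of -1.27 and -1.36 (edgeR, adjusted p = 0.0804 and 0.0795).

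Groups of 4 samples were checked for single values far from the rest, and none of the 20 groups tested for the 10 members held one.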
